A study of Rattus norvegicus with 42 samples.

Results

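The glucocorticoid receptor (GR) sites described here lay within 1000 b of a transcription start site (TSS) in rat liver. They numbered 474 of the 3981 GR regions of the study and are called promoter sites, and the remaining 3507 regions are called distal sites. Promoter sites were chosen only by the absolute distance to the nearest TSS that the authors annotated, so that no value of GR, of elongating RNA polymerase II or of RNA entered the choice. The 3981 regions were nevertheless peaks called in these same libraries and merged, so that a rise over vehicle at a region is partly built into the list.

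Adrenalectomised male Sprague-Dawley rats, which lack the adrenal source of corticosterone (CORT), received CORT or vehicle (VEH) for 3 h. CORT was given either in pulses of 20 min every 60 min at 1 ml/h (PULS) or without interruption at 0.333 ml/h (CONS). The study states that the constant infusion ran at 1 ml/h for its first 10 min. GR ChIP-Seq and ChIP-Seq of RNA polymerase II phosphorylated at serine 2 of its C-terminal repeat (pSer2 Pol2, the elongating form) each comprised 10 libraries in 5 groups of 2. The groups were the pulse peak at 140 min (PEAK_140), the pulse nadir at 180 min (NADIR_180), constant CORT at the same 2 times (CONS_140 and CONS_180), and VEH, which held 1 library of 140 min and 1 library of 180 min. Both VEH libraries came from pulsatile vehicle, so that the CONS groups had no ChIP vehicle of their own pattern. Every group, VEH included, was adrenalectomised, and each ChIP library pooled 6 rats. RNA-Seq comprised 4 groups of 3 libraries at 180 min, namely PULS CORT, PULS VEH, CONS CORT and CONS VEH. The p-values measure the spread between these libraries, which may be technical in part.

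Total tags ranged from 2051977 to 6715803 per GR library and from 4938473 to 9326927 per pSer2 Pol2 library, and RNA libraries held 3956379 to 7777219 reads. Library 1 of CONS_140 was the deepest GR library, with 6715803 tags against 3663062 in library 2, and stood apart at promoter sites. At NADIR_180, library 1 had a median of 1.51 over promoter sites and library 2 of -0.46. Results that rest on these libraries are given with and without them. The 6 hepatocyte markers Alb, Apoa1, Ttr, Serpina1, Cyp2e1 and Ass1 summed to 89200 to 138000 CPM (reads scaled to the library total) in the RNA libraries. Summed markers reached 208 to 375 CPM for Kupffer cells, 225 to 328 CPM for endothelial cells without Pecam1, 21.5 to 39.6 CPM for stellate cells, 7.57 to 14.6 CPM for bile duct without Krt19 and Sox9, and 131 to 240 CPM for blood without Hba1, Cd3e and Cd79a, and the markers left out were not measured. CORT and VEH libraries overlapped in each of these sums, except for the stellate sum in CONS, which was 34 to 35.5 CPM with CORT and 21.5 to 31.1 CPM with VEH, and whose part in the results was not tested.

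GR is a nuclear receptor that enters the nucleus when it binds a glucocorticoid. It binds DNA as a dimer at an imperfect palindrome of inverted AGAACA repeats, the glucocorticoid response element (GRE), or reaches chromatin through other factors, and it can raise or lower transcription of nearby genes. In liver, glucocorticoids are known for inducing the enzymes that break down amino acids, make glucose and dispose of nitrogen, and for restraining inflammation and cell growth. Serine 2 of the polymerase repeat is phosphorylated while the enzyme elongates, so that pSer2 Pol2 over a gene body reports ongoing transcription, whereas RNA accumulates over time.

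Of the 474 promoter sites, 333 were annotated as promoter, 92 as intron, 34 as exon and 15 as the end of a transcript. The centre of 282 sites lay upstream of the TSS and that of 192 at or downstream of it, with a median absolute distance of 276 b and a median width of 625 b. The sites were spread over 21 chromosomes and were nearest to 453 genes, of which 16 had 2 or more promoter sites and 175 were also nearest to a distal site. Small RNA genes with RF names were nearest to 18 of the sites. The members closest to the limit of 1000 b were a site of Angptl2 at 999 b and a site of AABR07016592.1 at -997 b, and the nearest regions outside it were those of Spred1 at -1003 b and Bhlhe40 at -1008 b. GR values on a log2 scale at the Angptl2 site were 0.58 and -0.96 in VEH, 3.17 and -0.41 at PEAK_140, -0.76 and 2.33 at NADIR_180, 3.87 and 1.58 at CONS_140 and 2.90 and 2.65 at CONS_180. At the AABR07016592.1 site they were 1.98 and 2.99 in VEH, 4.88 and 4.62 at PEAK_140, 3.49 and 2.65 at NADIR_180, 4.67 and 5.09 at CONS_140 and 4.06 and 4.50 at CONS_180. Outside the limit, GR at the Spred1 region was -0.83 and 0.38 in VEH and 2.33 and -0.42 at PEAK_140, and at the Bhlhe40 region -0.44 and 1.23 in VEH and 4.82 and 4.90 at PEAK_140. These 4 regions are given as a description of the limit only.

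The matches to the GRE that the study listed within these sites show the element at genes to which the results return, and their bases 4 to 6 and 10 to 12, the cores of the palindrome's arms, are in capitals. Sequences are read 5′ to 3′ on the strand of the match, and each site is given by its rn6 coordinates. The palindromes of Cdkn1a and Got1 were listed on both strands and are shown on the minus strand only. Only part of that list was at hand, so that no share of sites with an element was counted.
Cdkn1a, palindrome: ggaACAtacTGT
Cdkn1a, further match: gggACAgggAGT
Got1: ggtACAgcgTGT
Klf15: ggaACAacaTGT
Gpt2: ggaACAtgcAGT
Slc2a2: agaACTctgTGT
Acacb: agaACAcccTGT
Tsc22d3: agaACAgccAGT

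These elements lay in the sites of Cdkn1a at chr20:6352069-6352694 (923 b from the TSS, intron), Got1 at chr1:263269863-263270488 (-413 b, promoter), Klf15 at chr4:122365699-122366347 (930 b, intron), Gpt2 at chr19:22630831-22631456 (928 b, intron), Slc2a2 at chr2:114423489-114424130 (276 b, intron), Acacb at chr12:48238774-48239399 (-199 b, promoter) and Tsc22d3 at chrX:111888507-111889132 (-913 b, promoter). The right arm read TGT in all of them except the further Cdkn1a match, Gpt2 and Tsc22d3, where it read AGT, and the left arm read ACT in place of ACA in Slc2a2.

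Promoter sequences from RefSeq (build GRCr8) show how the DNA before the start differed between genes next to these sites. They span 250 b up to the RefSeq start on the strand of the gene, which may differ from the start used for the distances. A GR site can thus lie partly or wholly outside the printed window. Capitals mark matches to the letters of the GRE core, ACANNNTGT, and of the TATA motif, TATAAA, wherever they lay in the window, and the Tdo2 match to TATAAA lay near its upstream end. Shown are the promoters of Tdo2 (chr2:169585587-169585836, minus strand), Orm1 (chr5:81788259-81788508, plus strand), Upp2 (chr3:63681576-63681825, plus strand) and Cps1 (chr9:76063613-76063862, plus strand), which carried a core. The promoter sites of these genes were called raised in GR at PEAK_140. For contrast, the window of Edem1 (chr4:143353425-143353674, plus strand) had no core. The GR site of Edem1, in an exon downstream of its TSS, had a peak at CONS_140 alone.
Tdo2: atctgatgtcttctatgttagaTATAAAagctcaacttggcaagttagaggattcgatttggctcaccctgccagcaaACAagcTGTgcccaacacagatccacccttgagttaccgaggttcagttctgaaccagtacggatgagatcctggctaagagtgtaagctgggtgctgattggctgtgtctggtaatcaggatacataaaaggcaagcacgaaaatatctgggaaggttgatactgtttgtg
Orm1: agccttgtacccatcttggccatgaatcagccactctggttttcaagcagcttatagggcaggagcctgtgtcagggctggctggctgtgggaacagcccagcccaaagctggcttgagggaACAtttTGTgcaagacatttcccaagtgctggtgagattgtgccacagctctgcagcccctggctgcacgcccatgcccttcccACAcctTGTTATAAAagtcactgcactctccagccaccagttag
Upp2: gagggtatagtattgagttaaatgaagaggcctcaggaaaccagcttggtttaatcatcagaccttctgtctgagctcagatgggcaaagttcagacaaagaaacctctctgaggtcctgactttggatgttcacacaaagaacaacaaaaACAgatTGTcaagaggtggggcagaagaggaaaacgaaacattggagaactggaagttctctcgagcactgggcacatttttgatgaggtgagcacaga
Cps1: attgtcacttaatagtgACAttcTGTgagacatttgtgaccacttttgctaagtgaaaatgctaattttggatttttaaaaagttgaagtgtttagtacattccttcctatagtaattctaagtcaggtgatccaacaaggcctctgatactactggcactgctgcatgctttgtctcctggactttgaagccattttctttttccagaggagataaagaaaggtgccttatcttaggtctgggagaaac
Edem1: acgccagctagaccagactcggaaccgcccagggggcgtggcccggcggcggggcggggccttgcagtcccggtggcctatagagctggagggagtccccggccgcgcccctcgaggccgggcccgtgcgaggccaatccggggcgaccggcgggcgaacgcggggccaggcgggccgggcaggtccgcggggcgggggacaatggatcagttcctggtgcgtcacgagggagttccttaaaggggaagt

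In the Orm1 promoter the second of its 2 cores ran directly into a TATAAA match close to the start. The Edem1 promoter had a GC content of 74.4% and 30 CG dinucleotides, against 0 in the Cps1 promoter and 4 in the Tdo2 promoter.

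RefSeq promoters were found for 305 of the 448 gene names next to promoter sites. Over the window from 250 b before to 50 b after the start, searched on both strands, the core ACANNNTGT occurred in 31 of them (10.2%), in 57 of 1145 promoters of genes that were nearest only to distal sites (4.98%) and in 6.60% of all 27457 promoters. A longer form, the core with a G and any base before it and any base and a C after it, every match of which also holds the core, occurred in 12 (3.93%), 0 and 0.422% of these sets. A single AGAACA was found in 13.1%, 12.2% and 20.1%. The STAT-type palindrome TTCNNNGAA occurred in 11.5%, 6.03% and 8.68%, and TATAAA in 8.52%, 9.0% and 14.3%. CCAAT was present in 43.3%, 36% and 37.7%, and the short consensus of CEBP in 10.8%, 9.61% and 10.5%, of HNF4 in 1.31%, 0.611% and 0.375% and of the cyclic AMP element in 3.28%, 2.79% and 1.91%. Median GC content was 60.3% next to promoter sites, 61.0% next to distal sites only and 52.3% over all promoters. Promoters whose GR site had a PEAK_140 peak (176) held the core in 13.1% and had a median GC content of 56.7% and 8.5 CG dinucleotides. Promoters whose only GR peak was at CONS_140 (83) held it in 3.61% and had a median GC content of 66.7% and 26 CG dinucleotides. These shares are descriptions of letters in a window and were not tested.

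GR at promoter sites was high at PEAK_140, CONS_140 and CONS_180 and low at NADIR_180 and in VEH, as at distal sites. Taken over all sites of each class, a smaller share of promoter sites was called and their median change was smaller. The deposited GR values were log2 tags after subtraction of input, drawn towards the mean of each region. Values of about -0.5 to -1 in VEH mean that few or no tags were left, so that fold changes over VEH are fitted values and not bounds. The median over the 474 promoter sites was -0.41 and -0.84 in the VEH libraries, 3.56 and 2.99 at PEAK_140, 1.51 and -0.46 at NADIR_180, 4.14 and 2.59 at CONS_140, and 3.10 and 3.12 at CONS_180. Over distal sites it was -0.66 and -0.86, 4.08 and 3.75, 1.28 and -0.48, 3.66 and 3.05, and 3.38 and 3.30 in the same order. The medians of PEAK_140, CONS_140 and CONS_180 thus lay above those of NADIR_180 and VEH in every library. At promoter sites NADIR_180 overlapped VEH, whereas at distal sites both NADIR_180 libraries lay above both VEH libraries.

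Calls came from limma fitted to all 10 libraries. They required an adjusted p (Benjamini-Hochberg, over the 3981 regions) under 0.05 together with a log2 change above 0.585, that is 1.5-fold. At PEAK_140, 262 promoter sites were raised (55.3%) against 81.8% of distal sites, where 78.6% of all regions were raised, and the median change over VEH was 3.07 at promoter sites and 4.28 at distal sites. At CONS_140, 250 promoter sites were raised (52.7%) against 66.3% of distal sites and 64.7% of all regions, with medians of 2.79 and 3.46. At CONS_180, 234 were raised (49.4%) against 70.4% of distal sites and 67.9% of all regions, with medians of 2.75 and 3.58. At NADIR_180 the count was 24 (5.06%) against 7.76% of distal sites and 7.44% of all regions, with medians of 0.61 and 0.87. The share of promoter sites raised was thus below that of all regions in each of the 4 CORT groups, and it differed most at PEAK_140. Among the 277 promoter sites with a peak called at PEAK_140, 229 were raised there (82.7%), with a median change of 4.22. Such a peak was called at 58.4% of promoter sites and 83.6% of distal sites. The part of peak calling in the promoter and distal shares was not tested.

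Few promoter sites were lowered, namely 9 at PEAK_140 (1.90%, all regions 1.83%), 2 at NADIR_180 (all regions 0.352%), 1 at CONS_140 (all regions 0.377%) and 2 at CONS_180 (all regions 0.301%). All 4 comparisons share the same 2 VEH libraries. Without VEH library 1 or 2, 234 and 198 promoter sites were raised at PEAK_140. Without CONS_140 library 1, 177 were raised at CONS_140, and without library 2, 331. The 24 sites raised at NADIR_180 became 20 without NADIR_180 library 1, 55 without library 2, 15 without VEH library 2 and 0 when only the libraries of the 2 groups were fitted.

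Compared directly with NADIR_180, GR was higher at PEAK_140 at 210 promoter sites (44.3%, distal 72.1%, all regions 68.8%) and higher at CONS_180 at 137 (28.9%, distal 52.4%, all regions 49.6%). Between PEAK_140 and CONS_140, 0 promoter sites were called by limma (all regions 0.0502%), with 62 at an unadjusted p below 0.05, and the median difference was -0.08 at promoter sites and 0.64 at distal sites. The change from 140 to 180 min differed between PULS and CONS at 122 promoter sites in an interaction term. At 115 of them the fall was greater in PULS (24.3%, distal 46.2%, all regions 43.6%) and at 7 greater in CONS (all regions 0.402%). The count of 115 ranged from 29 without PEAK_140 library 1 to 147 without CONS_140 library 1, and with the median of each library set to 0 the call of a greater fall in PULS was made at 0 sites and that of a greater fall in CONS at 15.

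The calls depend on scaling, because most regions rose. The median change over all regions was 4.17 at PEAK_140, 3.38 at CONS_140, 3.46 at CONS_180 and 0.84 at NADIR_180. After the median of each library was set to 0, 5 promoter sites were raised and 111 lowered at PEAK_140, 10 and 46 at CONS_140, 6 and 53 at CONS_180, and 0 and 0 at NADIR_180. Relative to the typical region, 23.4% of promoter sites and 9.12% of distal sites were then lowered at PEAK_140. Changes at single sites below are over VEH on the deposited scale. Centring subtracts the median over all regions from each library. Sites that rose by less than the difference between these library medians, averaged per group, of a CORT group and VEH thus turn negative on the centred scale.

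**Figure D1:**
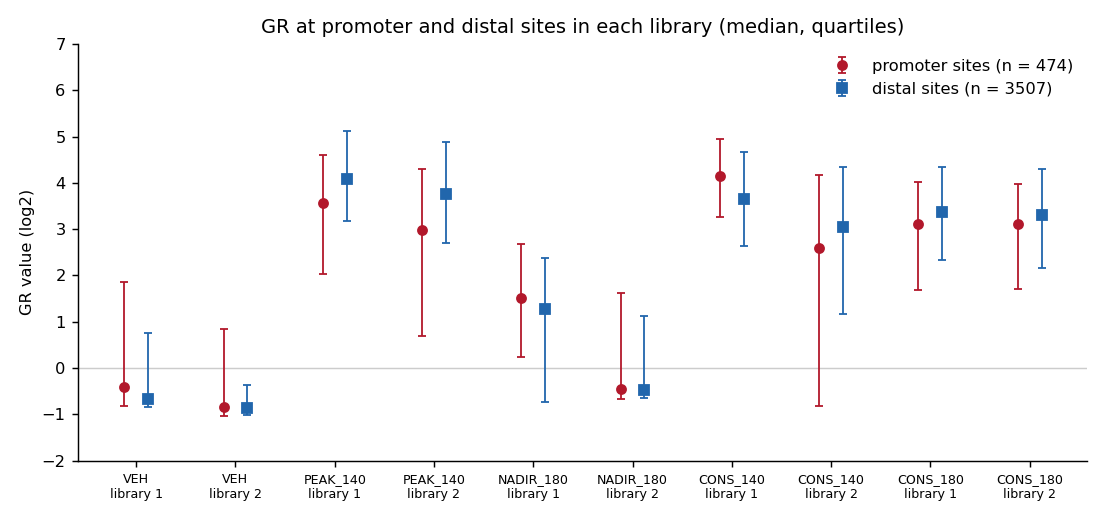
GR values (log2) of promoter and distal sites in each of the 10 GR libraries, with the point at the median and the bar from the lower to the upper quartile. Promoter medians lay below distal medians in both PEAK_140 libraries (3.56 and 2.99 against 4.08 and 3.75) and above the distal median in CONS_140 library 1 (4.14 against 3.66).

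The difference between promoter and distal sites was also taken as 1 value per library, the median of promoter sites minus that of distal sites. It was 0.25 and 0.02 in VEH, 0.24 and 0.01 at NADIR_180, -0.53 and -0.76 at PEAK_140, -0.28 and -0.18 at CONS_180, and 0.48 and -0.46 at CONS_140. Promoter sites thus stood below distal sites in all libraries of PEAK_140, CONS_180 and CONS_140 except CONS_140 library 1. Over the 6 libraries of PEAK_140, CONS_140 and CONS_180 the mean was -0.29 ± 0.43 (SD, n = 6) and over the 4 of NADIR_180 and VEH 0.13 ± 0.13 (SD, n = 4), a difference of -0.42 that did not pass an exact two-sided permutation test (p = 0.105, smallest possible 0.00952). Without CONS_140 library 1 the difference was -0.57 (exact permutation p = 0.0159). Between all CORT and VEH libraries it was -0.32 (exact permutation p = 0.311, smallest possible 0.0444).

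Within the limit of 1000 b the share of raised sites lay in a narrow range at PEAK_140 and CONS_180 and varied more at CONS_140 and NADIR_180. At PEAK_140, 51.1% of the 92 sites within 100 b were raised, 52.3% of the 128 sites at 101 to 250 b, 59.5% of the 116 sites at 251 to 500 b and 57.2% of the 138 sites at 501 to 1000 b. Beyond the limit the share was 77.6% at 1 to 10 kb (n = 1181), 84.2% at 10 to 100 kb (n = 2017) and 82.2% beyond 100 kb (n = 309), so that the share changed most across the limit. At CONS_140 the shares were 59.8%, 49.2%, 56.9% and 47.8% within the limit and 64.3%, 68.1% and 62.5% beyond it. At CONS_180 they were 52.2%, 46.1%, 50.9% and 49.3% within it and 67.7%, 72.4% and 67% beyond it. At NADIR_180, 11 of the 92 sites within 100 b were raised (12%), against 3.12%, 1.72% and 5.07% in the further bins within 1000 b and 8.04%, 7.68% and 7.12% beyond it. Of the upstream sites 58.2% were raised at PEAK_140 (164 of 282), and of those at or downstream of the TSS 51% (98 of 192). These shares were not tested.

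**Figure D2:**
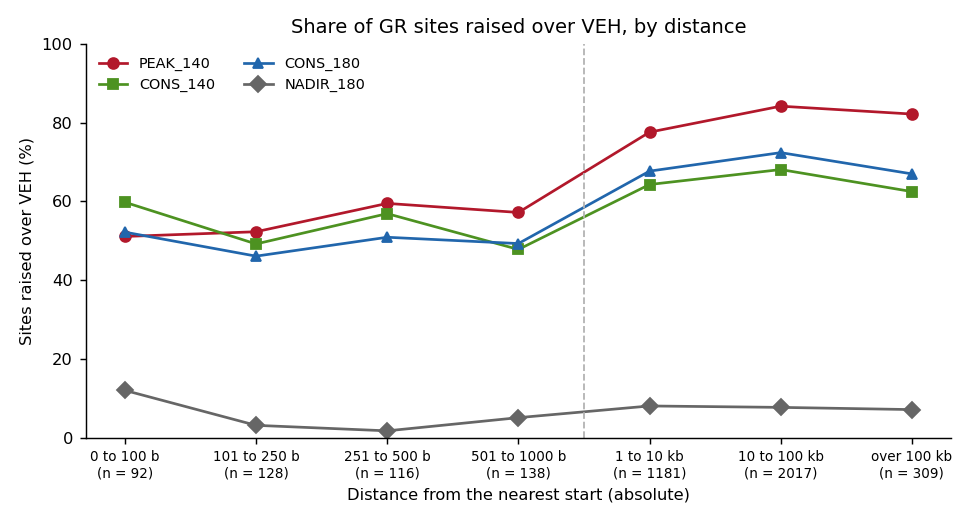
Share of GR regions raised over VEH (percent, limma) by distance to the nearest TSS, with a line for each CORT group and a dashed line at the 1000 b limit. Shares at PEAK_140 lay between 51.1% and 59.5% within 1000 b and between 77.6% and 84.2% beyond it.

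Peak calls gave the same order of promoter and distal shares as limma at PEAK_140 and CONS_180 and the opposite order at CONS_140 and NADIR_180. A peak was called at 277 promoter sites at PEAK_140 (58.4%, against 83.6% of distal sites), at 249 at CONS_180 (52.5% against 62.1%), at 16 at NADIR_180 (3.38% against 1.6%) and at 24 in VEH (5.06% against 2.62%). At CONS_140, 287 promoter sites had a peak (60.5%), a larger share than of distal sites (40.9%). The most frequent pattern was a peak at PEAK_140, CONS_140 and CONS_180, at 118 promoter sites, which were 9.57% of the 1233 regions with it. A peak at CONS_140 alone followed with 112 promoter sites, which were 44.4% of the 252 regions with that pattern. A peak at PEAK_140 alone marked 82 promoter sites, 7.48% of 1096 such regions.

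The 112 promoter sites with a peak at CONS_140 alone rested on library 1 of that group. Library 1 was above library 2 at 108 of them and was the highest of all 10 libraries at 108. Median GR values were -0.52 and -0.99 in VEH, 1.41 and -0.47 at PEAK_140, 1.23 and -0.69 at NADIR_180, 4.11 and 0.21 at CONS_140, and 1.33 and 1.71 at CONS_180. Library 1 of CONS_140 alone was high, and its library 2 lay within the range of the other groups. Of these sites 38 were raised at CONS_140 (33.9%), 15 at CONS_180, 11 at PEAK_140 and 1 at NADIR_180. Of the 362 further promoter sites, 251 were raised at PEAK_140 (69.3%, median change 3.62), 212 at CONS_140 (58.6%), 219 at CONS_180 (60.5%) and 23 at NADIR_180. The share raised at PEAK_140 therefore stayed below that of distal sites without them. Library 1 was likewise the highest of all 10 at 129 of the 140 distal sites with a peak at CONS_140 alone. The medians there were 4.14 in library 1 and 2.38 in library 2, so that the pattern was not particular to promoter sites. Library 1 also had the most tags, and the part of depth in this pattern was not tested.

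**Figure D3:**
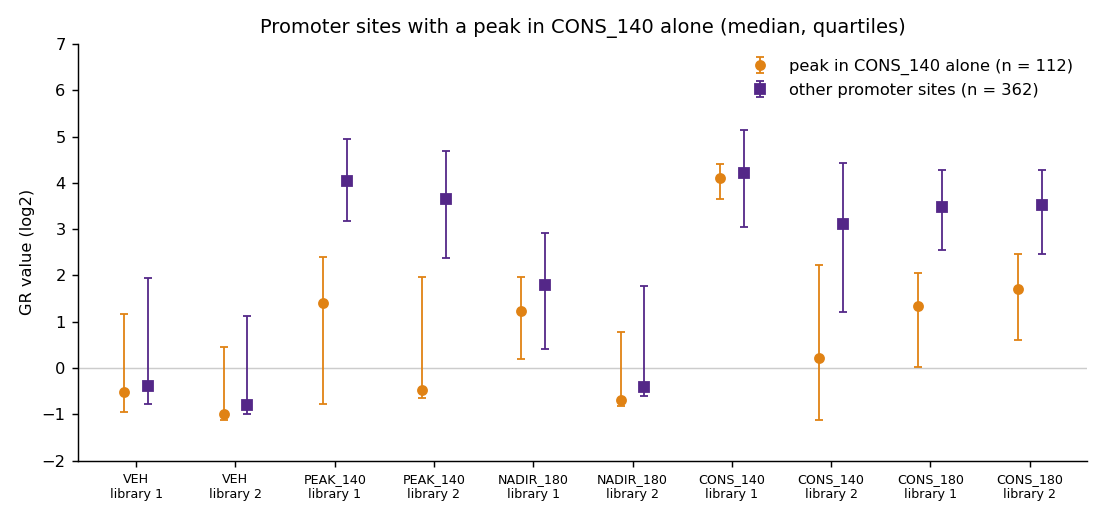
GR values (log2) per library at the 112 promoter sites with a peak at CONS_140 alone and at the 362 further promoter sites, with the point at the median and the bar from the lower to the upper quartile. At the 112 sites the median was 4.11 in CONS_140 library 1 and 0.21 in library 2.

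The promoter sites with the largest called rise at PEAK_140 included those of Adk, which encodes adenosine kinase, Orm1, which encodes the acute phase protein alpha-1-acid glycoprotein, and Fga, the fibrinogen alpha chain. At the Adk site (chr15:3409363-3410117, 683 b, intron), GR values were -0.47 and -0.67 in VEH, 6.52 and 6.55 at PEAK_140, -0.39 and 1.76 at NADIR_180, 6.65 and 6.62 at CONS_140 and 5.77 and 6.19 at CONS_180. All libraries of PEAK_140, CONS_140 and CONS_180 were above those of VEH and NADIR_180, and the change at PEAK_140 was 7.10 ± 0.68 (SE, adjusted p = 5.01e-05), limma. At the Orm1 site (chr5:79179238-79179865, 134 b, exon) they were -0.45 and -0.65 in VEH, 6.61 and 5.94 at PEAK_140, 3.48 and 2.91 at NADIR_180, 6.08 and 4.95 at CONS_140 and 4.67 and 4.79 at CONS_180. GR at Orm1 stayed above VEH at NADIR_180 in both libraries, with changes of 6.82 ± 0.55 (SE, adjusted p = 2.5e-05) at PEAK_140 and 3.74 ± 0.55 (SE, adjusted p = 0.00477) at NADIR_180. At the Fga site (chr2:182005892-182006524, -34 b, promoter) the change at PEAK_140 was 6.47 ± 0.55 (SE, adjusted p = 3.15e-05) and the values at NADIR_180, 1.52 and 1.02, were not called over VEH.

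Sites that kept GR at the nadir included those of Kng1, which encodes kininogen, Card10, a scaffold of NF-kB signalling, Asgr1, a subunit of the hepatic asialoglycoprotein receptor, and Cdkn1a, the cell cycle inhibitor p21. At the Kng1 site (chr11:81444295-81445005, -29 b, promoter), GR values were -0.26 and 1.73 in VEH, 6.99 and 6.50 at PEAK_140, 5.09 and 4.71 at NADIR_180, 5.69 and 4.97 at CONS_140 and 5.68 and 5.59 at CONS_180. At the Card10 site (chr7:120027547-120028172, -833 b, promoter) they were -0.37 and -0.57 in VEH, 5.51 and 5.87 at PEAK_140, 4.10 and 3.38 at NADIR_180, 6.56 and 5.77 at CONS_140 and 5.61 and 6.09 at CONS_180. At the Cdkn1a site they were 2.65 and 2.11 in VEH, 7.08 and 7.07 at PEAK_140, 4.40 and 4.56 at NADIR_180, 8.26 and 8.00 at CONS_140 and 6.51 and 6.42 at CONS_180. At each of these sites both NADIR_180 libraries were above both VEH libraries and below both PEAK_140 libraries. The rise at NADIR_180 was 4.16 ± 0.64 (SE, adjusted p = 0.00529) at Kng1, 4.21 ± 0.49 (SE, adjusted p = 0.00178) at Card10, 4.02 ± 0.51 (SE, adjusted p = 0.0024) at Asgr1 and 2.10 ± 0.31 (SE, adjusted p = 0.00477) at Cdkn1a, by limma. The fall from PEAK_140 to NADIR_180 was also called at all 4 sites, with PEAK_140 minus NADIR_180 differences of 1.85, 1.95, 1.33 and 2.60.

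Other sites returned to the level of VEH at the nadir. At the site of Agt, which encodes angiotensinogen (chr19:57333196-57333849, -89 b, promoter), GR values were -0.81 and -0.99 in VEH, 5.86 and 4.80 at PEAK_140, -0.75 and -0.58 at NADIR_180, 4.62 and 4.09 at CONS_140 and 3.54 and 3.56 at CONS_180. NADIR_180 and VEH were both below 0, where few or no tags were left, and PEAK_140 exceeded NADIR_180 by 5.99 ± 0.61 (SE, adjusted p = 0.00025) in limma. A few sites were raised only under constant infusion by these calls, such as those of Mafk (chr12:16934422-16934949, 21 b, promoter), a small Maf transcription factor, and Sik1 (chr20:10680559-10681086, -539 b, promoter), a salt-inducible kinase. At Mafk, GR values were -1.0 and -1.17 in VEH, 3.06 and -0.57 at PEAK_140, 0.54 and -0.78 at NADIR_180, 4.88 and 3.42 at CONS_140 and 2.06 and 2.36 at CONS_180. The PEAK_140 libraries of Mafk lay on either side of those of CONS_180, and the groups were not shown to differ there, since 0 promoter sites were called between PEAK_140 and CONS_140. In limma fits that left out 1 library, the CONS_180 call of Mafk was lost in 4 of 4 and its CONS_140 call in 0 of 4. The CONS_140 call of Sik1 was lost in 3 of 4.

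Among the lowered sites were regions at small RNA genes. At RF00105 (chr1:116752462-116752611, 583 b, transcript end), a family of small nucleolar RNAs, GR values were 2.93 and 2.81 in VEH, -0.84 and -0.67 at PEAK_140, -0.97 and -0.84 at NADIR_180, -1.44 and -1.11 at CONS_140 and 1.78 and 1.70 at CONS_180. All CORT libraries were below both VEH libraries, with a change of -3.63 ± 0.67 (SE, adjusted p = 0.00124) at PEAK_140. At a site near the 5.8S ribosomal RNA gene RF00002 (chr1:11907458-11907607, -939 b) GR values were 5.18 and 5.30 in VEH, -0.10 and 0.14 at PEAK_140, 5.63 and 5.37 at NADIR_180, 2.38 and 6.53 at CONS_140 and 6.29 and 6.12 at CONS_180. PEAK_140 was low in both libraries (-5.22 ± 1.07 SE, adjusted p = 0.00205) and CONS_140 in library 1. At Rhob (chr6:33691036-33691563, 2 b, promoter), which encodes a small GTPase, GR values were 4.66 and 4.02 in VEH, -0.92 and -0.69 at PEAK_140, 1.82 and 1.5 at NADIR_180, 6.54 and -1.27 at CONS_140 and -1.55 and -1.47 at CONS_180. The CONS_140 libraries of Rhob lay on either side of VEH, and the change from VEH was -5.15 ± 1.97 (SE, adjusted p = 0.0363) at PEAK_140 and -5.85 ± 1.97 (SE, adjusted p = 0.0265) at CONS_180. Both calls at Rhob were lost in each of the 4 limma fits that left out 1 library. Ribosomal and small nucleolar RNA genes have near-identical copies, among which reads cannot be placed with certainty.

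Transcription of the promoter-bound genes was followed through the pSer2 Pol2 value of the transcript whose TSS was nearest to the site. Tags were found for 414 of the 453 genes, and the comparison group was 1527 genes nearest only to distal sites. At PEAK_140, 25 promoter-bound genes rose (6.04%) and 7 fell (1.69%) in limma over 38315 regions, where 0.365% rose and 0.624% fell, and 112 had an unadjusted p below 0.05. Among distal-bound genes, 27 rose (1.77%) and 31 fell (2.03%). At CONS_140, 35 promoter-bound genes rose (8.45%) and 3 fell (0.725%), against 3.54% and 0.982% of distal-bound genes and 0.592% and 0.196% of all regions. At CONS_180, 13 rose (3.14%) and 0 fell, against 0.786% and 0.0655% of distal-bound genes and 0.157% and 0.0574% of all regions. At NADIR_180, 0 rose and 1 fell (all regions 0% and 0.00522%), with 35 genes at an unadjusted p below 0.05. Rises outnumbered falls among promoter-bound genes at PEAK_140 and CONS_140. Among distal-bound genes they were nearly equal at PEAK_140 (27 and 31) and rises outnumbered falls at CONS_140 (54 and 15).

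The pSer2 Pol2 calls leaned on the spread shared over all 10 libraries. When only the libraries of the groups compared were fitted, 0 genes were called at PEAK_140 and CONS_140 and 3 at CONS_180, and without VEH library 2, 3 genes were called at CONS_140. With the replicate number as a block, the counts of called genes were 51 at PEAK_140, 79 at CONS_140, 32 at CONS_180 and 1 at NADIR_180, in place of 32, 38, 13 and 1. With the library medians set to 0, 44 genes rose and 13 fell at PEAK_140, 50 and 14 at CONS_140 and 28 and 5 at CONS_180.

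From PEAK_140 to NADIR_180, pSer2 Pol2 was higher at the peak at 22 promoter-bound genes (5.31%, all regions 0.243%) and lower at 1 (0.242%, all regions 0.238%). Among distal-bound genes, 15 were higher (0.982%) and 11 lower. The promoter minus distal difference in median pSer2 Pol2 level was 2.19 ± 0.24 (SD, n = 8) in CORT and 2.12 ± 0.15 (SD, n = 2) in VEH libraries, a difference of 0.07 that did not pass an exact two-sided permutation test (p = 0.756, smallest possible 0.0444). Promoter-bound genes thus had the higher pSer2 Pol2 level with or without CORT.

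RNA at 180 min was measured for 388 promoter-bound genes and 1461 distal-bound genes in edgeR over 14092 genes. In PULS CORT against PULS VEH, 50 promoter-bound genes rose (12.9%) and 5 fell (1.29%), against 6.50% and 4.72% of distal-bound genes and 1.79% and 2.44% of all genes. In CONS CORT against CONS VEH, 77 rose (19.8%) and 28 fell (7.22%), against 15.5% and 7.60% of distal-bound genes and 4.45% and 4.75% of all genes. Rises thus outnumbered falls in both patterns, by 50 to 5 in PULS and by 77 to 28 in CONS, and these ratios were not tested against each other. The median signed change was 0.14 in PULS and 0.07 in CONS. In distal-bound genes with a site within 10 kb (634), 10.1% rose and 2.68% fell in PULS and 18.6% and 7.26% in CONS, values between those of promoter-bound genes and of all distal-bound genes. In bulk liver, fewer cells of a type and less RNA per cell cannot be told apart.

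The median RNA level of promoter-bound genes minus that of distal-bound genes was 1.17 ± 0.04 (SD, n = 6) in CORT and 1.08 ± 0.05 (SD, n = 6) in VEH libraries, a difference of 0.09 on the log2 CPM scale (exact two-sided permutation p = 0.00866, smallest possible 0.00216). The PULS CORT libraries, at 1.17, 1.18 and 1.16, were all above PULS VEH, at 1.08, 1.01 and 1.08, whereas CONS CORT, at 1.12, 1.25 and 1.16, overlapped CONS VEH, at 1.07, 1.09 and 1.17. Against distal-bound genes with a site at 1 to 10 kb only, the difference was 0.02 (exact permutation p = 0.39), which did not pass the test.

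**Figure D4:**
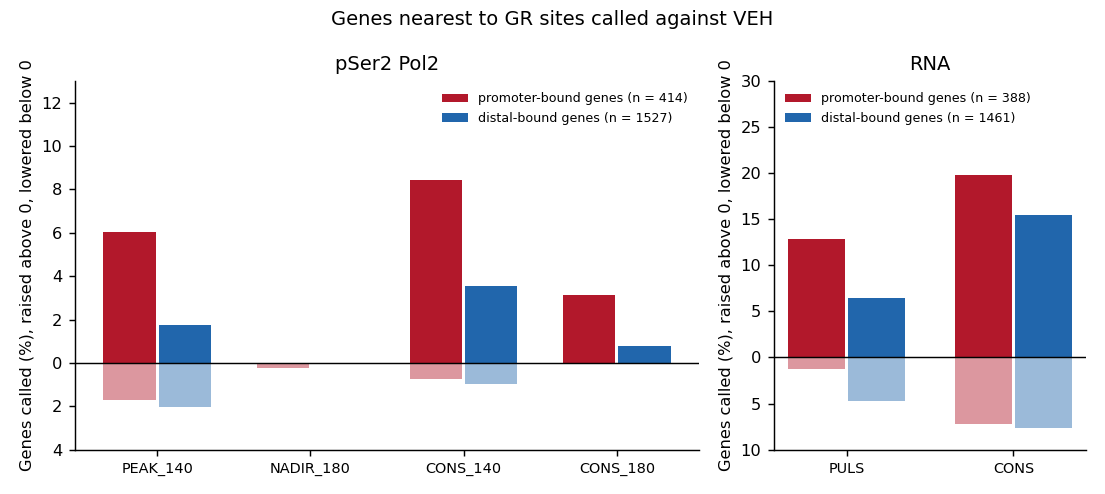
Share of promoter-bound and distal-bound genes raised and lowered (percent), for pSer2 Pol2 in each CORT group over VEH (limma) and for RNA in PULS and CONS (edgeR). At PEAK_140, 6.04% of promoter-bound and 1.77% of distal-bound genes rose in pSer2 Pol2.

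Genes next to a promoter site raised at PEAK_140, CONS_140 and CONS_180 rose in larger shares than genes next to a site raised in no group in RNA and in pSer2 Pol2 at 140 min, and not in pSer2 Pol2 at CONS_180. In RNA, 32 of 162 such genes rose in PULS (19.8%) and 44 in CONS (27.2%), against 11 (9.40%) and 19 (16.2%) of 117 next to a site raised in no group. In pSer2 Pol2, 17 of 173 rose at PEAK_140 (9.83%) and 22 at CONS_140 (12.7%), against 6 and 9 of 131. At CONS_180 the counts were 7 of 173 (4.05%) and 6 of 131 (4.58%), and in CONS RNA 4.94% and 9.4% of the 2 sets fell. Genes that also had a distal site had larger shares as well, with 33 of 159 raised in PULS (20.8%) and 47 in CONS (29.6%), against 17 (7.42%) and 30 (13.1%) of 229 genes with promoter sites only. Among the 21 measured genes next to a site raised at NADIR_180, 6 rose in PULS and 8 in CONS. These shares are descriptions and were not tested against each other.

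Of the gene groups considered, enzymes of amino acid breakdown and nitrogen disposal had the largest share of raised genes at promoter sites. Of 25 listed genes, 12 had a promoter site (among them Asl, Ass1, Cbs, Cps1, Got1, Gpt, Gpt2, Mat1a, Sds, Tat and Tdo2), and GR was raised at 8 of them at PEAK_140, 7 at CONS_140, 7 at CONS_180 and 2 at NADIR_180. Of all promoter sites 55.3%, 52.7%, 49.4% and 5.06% were raised in these groups. The shares of all regions were 78.6%, 64.7%, 67.9% and 7.44%, and both sets are the GR background of the lists that follow. In pSer2 Pol2, 5 of 12 rose at PEAK_140, 7 at CONS_140 and 3 at CONS_180, whereas 0 fell, where 0.365%, 0.592% and 0.157% of all regions rose. In RNA, 10 of the 11 measured genes rose in PULS and 11 in CONS, with a median change of 1.18 in both, against a median of 0.14 and 0.07 over all promoter-bound genes. Of all genes tested, 1.79% rose and 2.44% fell in PULS and 4.45% rose and 4.75% fell in CONS, and these shares are the background of the lists that follow as well. Of the 12 further listed genes measured that had no promoter site, 5 rose in PULS (median 0.58) and 3 in CONS (median 0.08).

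Tdo2 encodes tryptophan 2,3-dioxygenase, which opens the ring of tryptophan. At its site (chr2:180914768-180915393, -140 b), GR values were -0.84 and -1.01 in VEH, 4.22 and 3.67 at PEAK_140, -0.77 and -0.61 at NADIR_180, 3.88 and 4.27 at CONS_140 and 3.19 and 3.87 at CONS_180. The pSer2 Pol2 values were 9.73 and 9.81 in VEH, 11.90 and 12.15 at PEAK_140, 10.41 and 10.48 at NADIR_180, 12.04 and 12 at CONS_140 and 11.39 and 11.74 at CONS_180. In both assays PEAK_140, CONS_140 and CONS_180 were above VEH without overlap, with changes at PEAK_140 of 4.87 ± 0.61 (SE, adjusted p = 0.000171) for GR and 2.25 ± 0.23 (SE, adjusted p = 0.0014) for pSer2 Pol2 in limma. RNA was 558, 469 and 730.2 CPM in PULS VEH, 2804, 2322 and 2429 CPM in PULS CORT, 589, 989 and 937 CPM in CONS VEH and 3985, 2723 and 4025 CPM in CONS CORT. All CORT libraries exceeded all VEH libraries, and the changes were 2.10 ± 0.21 (SE, adjusted p = 3.36e-05) in PULS and 2.09 ± 0.21 (SE, adjusted p = 7.25e-06) in CONS by edgeR.

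Got1 encodes cytosolic aspartate aminotransferase. GR values at its site were 3.43 and 3.17 in VEH, 7.11 and 7.93 at PEAK_140, 4.56 and 3.91 at NADIR_180, 8.20 and 8.11 at CONS_140 and 7.16 and 7.35 at CONS_180, so that VEH libraries already carried tags. The pSer2 Pol2 values were 9.0 and 8.75 in VEH, 10.92 and 10.48 at PEAK_140, 7.92 and 7.27 at NADIR_180, 10.71 and 10.48 at CONS_140 and 10.71 and 10.47 at CONS_180, with NADIR_180 below VEH in both libraries. pSer2 Pol2 rose at PEAK_140 by 1.83 ± 0.31 (SE, adjusted p = 0.0195), and the change at NADIR_180, -1.28 ± 0.31 (SE, adjusted p = 0.983), did not pass. The PEAK_140 call was lost in each of the 4 limma fits that left out 1 library. RNA was 120.1, 111 and 68.5 CPM in PULS VEH, 369.6, 286 and 297 CPM in PULS CORT, 92.5, 85.1 and 128 CPM in CONS VEH and 792, 1058 and 977 CPM in CONS CORT. The RNA change was 1.67 ± 0.20 (SE, adjusted p = 0.00016) in PULS and 3.21 ± 0.21 (SE, adjusted p = 8.58e-08) in CONS, and the difference between the patterns, 1.54 ± 0.28 (SE, adjusted p = 0.058), did not pass in edgeR.

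Ass1, argininosuccinate synthase of the urea cycle, showed rises in transcription without a called rise of GR at its promoter. GR at its site (chr3:10375439-10375966, 124 b, intron) was 1.16 and -0.23 in VEH, -1.31 and -1.13 at PEAK_140, -1.44 and -1.31 at NADIR_180, 4.20 and -1.60 at CONS_140 and -1.83 and -1.77 at CONS_180, with no change called in any group and tags mainly in CONS_140 library 1. Its pSer2 Pol2 values were 10.39 and 9.80 in VEH, 11.95 and 11.63 at PEAK_140, 9.73 and 9.77 at NADIR_180, 12.54 and 12.10 at CONS_140 and 11.91 and 11.65 at CONS_180, and RNA was 1228, 1025 and 1209 CPM in PULS VEH, 2585, 2469.9 and 2795 CPM in PULS CORT, 1456, 1914 and 1876 CPM in CONS VEH and 3273, 3509.6 and 3832 CPM in CONS CORT. CORT libraries were above VEH without overlap except at NADIR_180 in pSer2 Pol2, with changes of 1.69 ± 0.28 (SE, adjusted p = 0.0149) at PEAK_140 by limma and 1.18 ± 0.13 (SE, adjusted p = 9.18e-05) in PULS by edgeR. The pSer2 Pol2 call at PEAK_140 was lost in each of the 4 limma fits that left out 1 library. Cps1, carbamoyl phosphate synthetase of the same cycle, had a raised GR site (chr9:74123537-74124162, -167 b), with a change of 2.70 ± 0.88 (SE, adjusted p = 0.0187) at PEAK_140, a call that was lost in 2 of 4 limma fits that left out 1 library. Its RNA changes were 0.97 in PULS and 1.18 in CONS, from 7257, 6224 and 5929 CPM in PULS VEH to 12511, 12254 and 13269.7 CPM in PULS CORT.

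Sds, serine dehydratase, had the largest RNA change of the group, from 47.3, 41.5 and 12 CPM in PULS VEH to 302, 254 and 268 CPM in PULS CORT and from 19.8, 47.8 and 66.4 to 532, 875 and 887 CPM in CONS. Its GR site (chr12:41627584-41628209, -155 b) held uneven values of 2.14 and -1.0 in VEH and 0.84 and 4.53 at PEAK_140 and was not called, whereas pSer2 Pol2 rose by 3.44 ± 0.36 (SE, adjusted p = 0.0014) at PEAK_140. Mat1a, methionine adenosyltransferase, had 929, 972 and 941 CPM in PULS VEH and 2022, 1963 and 2008 CPM in PULS CORT. The alanine aminotransferases Gpt and Gpt2 both rose in RNA, by 1.18 and 0.71 in PULS and by 0.59 and 0.68 in CONS, and GR was raised at both sites at PEAK_140 (6.27 and 4.75). Tat, tyrosine aminotransferase, had no called GR change at its promoter site (942 b), where the CONS_140 libraries read 5.73 and -1.28. Its RNA rose by 1.41 in PULS and 1.82 in CONS. Cbs, cystathionine beta-synthase, was the gene that rose in CONS and not in PULS, where its change of 0.56 ± 0.11 (SE, adjusted p = 0.00782) was under 1.5-fold.

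**Figure D5:**
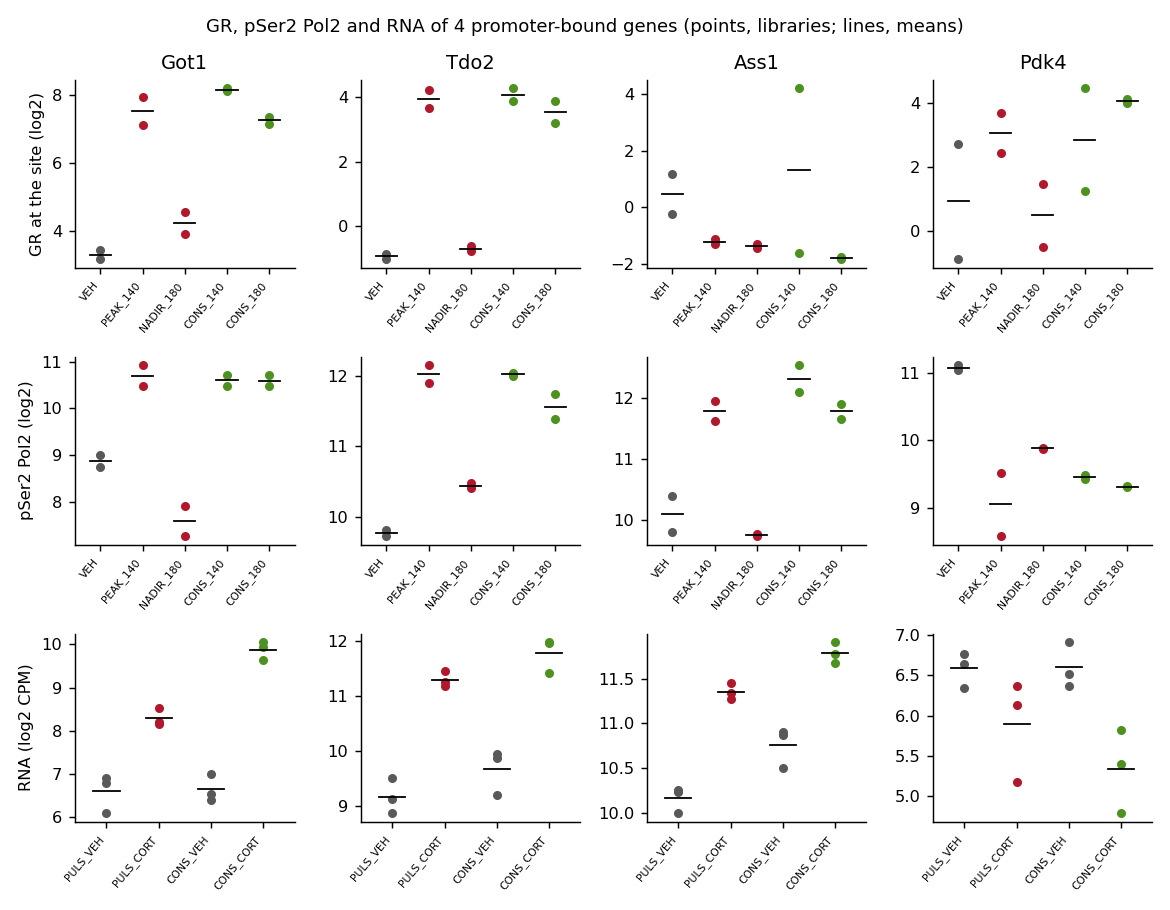
GR at the promoter site (top, log2), pSer2 Pol2 (middle, log2) and RNA (bottom, log2 CPM) of Got1, Tdo2, Ass1 and Pdk4 (site nearest to the TSS), with a point for each library and a line at each group mean. Grey marks VEH, red pulsatile CORT and green constant CORT, and Pdk4 was the gene of the 4 whose pSer2 Pol2 fell at PEAK_140.

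Known GR targets and genes that restrain growth were also called mainly upwards. Of 25 listed targets, 13 had a promoter site, and GR was raised at 8 of their 15 sites at PEAK_140, 7 at CONS_140, 8 at CONS_180 and 1 at NADIR_180. Of all promoter sites 55.3%, 52.7%, 49.4% and 5.06% were raised in these groups, and of all regions 78.6%, 64.7%, 67.9% and 7.44%. In RNA, 7 of 12 measured rose and 0 fell in PULS (median 0.93), and 9 rose and 2 fell in CONS (median 1.32), where 1.79% and 4.45% of all genes rose and 2.44% and 4.75% fell. pSer2 Pol2 rose at 2 of the 13 genes at PEAK_140, 5 at CONS_140 and 1 at CONS_180. It fell at 1, 1 and 0. Of all pSer2 Pol2 regions 0.365%, 0.592% and 0.157% rose and 0.624%, 0.196% and 0.0574% fell in these groups. Of the 9 measured targets without a promoter site, 4 rose in PULS and 6 in CONS, and 0 fell. The 9 growth brakes and immediate early genes with a promoter site of 31 listed were Cdkn1a, Cish, Dusp1, Errfi1, Klf10, Klf15, Klf2, Klf9 and Socs2, of which 3 rose in PULS and 5 in CONS and 0 fell in RNA, against 0 and 2 of 16 without one.

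Tsc22d3, which encodes the glucocorticoid-induced leucine zipper, had GR values of -0.54 and 1.69 in VEH, 4.60 and 4.74 at PEAK_140, 2.66 and 1.75 at NADIR_180, 3.57 and 4.51 at CONS_140 and 4.33 and 3.40 at CONS_180 at its site. Its pSer2 Pol2 values were 5.64 and 5.71 in VEH, 9.18 and 8.99 at PEAK_140, 6.04 and 6.12 at NADIR_180, 10.15 and 9.52 at CONS_140 and 8.94 and 8.53 at CONS_180, and RNA was 3.8, 2.64 and 4.98 CPM in PULS VEH, 33.1, 13.8 and 16.7 CPM in PULS CORT, 3.42, 3.75 and 4.89 CPM in CONS VEH and 32.7, 28 and 35.3 CPM in CONS CORT. CORT libraries were above VEH libraries without overlap in all 3 assays, by little at NADIR_180, and pSer2 Pol2 rose by 3.41 ± 0.33 (SE, adjusted p = 0.00121) at PEAK_140 and 4.16 ± 0.33 (SE, adjusted p = 0.00033) at CONS_140 in limma. Cdkn1a had the GR values given above, and its RNA was 3.62, 4.15 and 8.3 CPM in PULS VEH, 21.6, 16.8 and 13.4 CPM in PULS CORT, 4.03, 2.87 and 4.16 CPM in CONS VEH and 24.6, 20.7 and 32.8 CPM in CONS CORT. Its pSer2 Pol2 rose at CONS_140 (3.13 ± 0.50 SE, adjusted p = 0.0137) and not at PEAK_140 (1.76 ± 0.50 SE, adjusted p = 0.228).

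The Krueppel-like factor Klf15, which induces amino acid enzymes, rose in RNA from 18.7, 17 and 20.5 to 50.6, 39.6 and 41.3 CPM in PULS and from 26.9, 22.9 and 30.4 to 85.3, 90.2 and 84.9 CPM in CONS (1.23 ± 0.14 SE, adjusted p = 9.12e-05 and 1.69 ± 0.13 SE, adjusted p = 3.09e-07, edgeR). Klf9, another member of the family, was at 18.5, 42.1 and 29.7 CPM in PULS VEH, 47.4, 49 and 45.7 CPM in PULS CORT, 23.2, 18.3 and 17.4 CPM in CONS VEH and 87.7, 76.7 and 76.8 CPM in CONS CORT. It rose in CONS (2.02 ± 0.21 SE, adjusted p = 7.63e-06) while the change in PULS (0.66 ± 0.21 SE, adjusted p = 0.075) did not pass, and the difference between the patterns did not pass either (1.36 ± 0.29 SE, adjusted p = 0.0721). Igfbp1, which binds insulin-like growth factors, went from 19.3, 14.3 and 39.3 to 251, 172 and 154 CPM in CONS (2.98 ± 0.37 SE, adjusted p = 5.06e-05) with PULS not called (1.05 ± 0.40 SE, adjusted p = 0.143). Errfi1, an inhibitor of the EGF receptor, rose in CONS by 1.37, and GR at its site rose by 5.98 ± 0.58 (SE, adjusted p = 5.39e-05) at PEAK_140.

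Glucose and glycogen genes were bound at the promoter, and a minority of them was called in pSer2 Pol2 or RNA. Of 21 listed genes, 8 had a promoter site (among them G6pc, Gckr, Pck1, Ppp1r3b, Ppp1r3c, Slc2a2 and Slc37a4), and 6 of their 9 sites were raised at each of PEAK_140, CONS_140 and CONS_180. Of all promoter sites 55.3%, 52.7% and 49.4% were raised there, and of all regions 78.6%, 64.7% and 67.9%. In RNA, 2 of 7 measured rose in PULS and 2 in CONS, against 1.79% and 4.45% of all genes, and 1 of 8 rose in pSer2 Pol2 at CONS_140, against 0.592% of all regions. Of the 11 measured genes of this list without a promoter site, 2 rose in PULS and 2 in CONS. Slc37a4, the glucose 6-phosphate transporter, had GR values of -0.75 and -0.94 in VEH, 5.06 and 4.22 at PEAK_140, -0.69 and -0.52 at NADIR_180, 5.59 and 4.45 at CONS_140 and 4.72 and 4.34 at CONS_180 at its site (chr8:48717989-48718614, -28 b). Its RNA was 86, 69.5 and 85.9 CPM in PULS VEH, 114, 116 and 136 CPM in PULS CORT, 89.4, 85.1 and 109.7 CPM in CONS VEH and 129, 98.4 and 148 CPM in CONS CORT. GR at PEAK_140, CONS_140 and CONS_180 was above VEH without overlap, and RNA rose by 0.60 ± 0.15 (SE, adjusted p = 0.0313) in PULS, while the change in CONS, 0.40 ± 0.15 (SE, adjusted p = 0.102), did not pass. The PULS call was lost in each of the 6 edgeR fits that left out 1 library (adjusted p = 0.055 to 0.126), and the patterns were not shown to differ. Ppp1r3c, a glycogen-targeting subunit of protein phosphatase 1, rose in CONS by 1.66 ± 0.33 (SE, adjusted p = 0.00291).

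Lipid genes were few, with 4 of 32 listed at a promoter site (Acacb, Cyp7a1 and Insig1 among them). GR was raised at 2 of them at PEAK_140, 1 at CONS_140 and 2 at CONS_180. In CONS RNA 1 of the 4 rose and 2 fell. Of the 24 measured lipid genes without a promoter site, 2 rose and 14 fell in CONS (median -0.81). Acacb, acetyl-CoA carboxylase beta, carried a raised GR site with values of -0.83 and -0.99 in VEH, 4.22 and 1.09 at PEAK_140, 0.66 and 0.85 at NADIR_180, 4.31 and 2.69 at CONS_140 and 3.48 and 2.61 at CONS_180. Its RNA was 106, 116 and 178 CPM in PULS VEH, 112, 136 and 125 CPM in PULS CORT, 132, 184 and 127 CPM in CONS VEH and 65.6, 80.8 and 101 CPM in CONS CORT, and it fell in CONS (-0.83 ± 0.20 SE, adjusted p = 0.0103, edgeR) while PULS was not called (-0.11 ± 0.20 SE, adjusted p = 0.832). Cyp7a1, the rate-limiting enzyme of bile acid synthesis, fell in RNA from 80.7, 85.3 and 67.7 to 27.8, 66.2 and 31 CPM in CONS (-0.89 ± 0.27 SE, adjusted p = 0.0417), whereas its pSer2 Pol2 rose at CONS_140 (2.25 ± 0.39 SE, adjusted p = 0.0211, limma). The RNA call was lost in 5 of 6 fits that left out 1 library (adjusted p up to 0.175, edgeR) and the pSer2 Pol2 call in 3 of 4 (adjusted p up to 0.319, limma). The CONS RNA libraries were of 180 min and CONS_140 was of 140 min.

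Hepatocyte and nuclear receptor factors had 2 of 18 listed genes at a promoter site, Cebpa and Nr0b2. Nr0b2, the small heterodimer partner that represses Cyp7a1, had GR values of -0.51 and 1.21 in VEH, 5.06 and 4.61 at PEAK_140, 3.97 and -0.27 at NADIR_180, 5.83 and 5.31 at CONS_140 and 4.48 and 4.85 at CONS_180 at its site (chr5:151775368-151776138, -251 b). Its RNA rose in CONS from 5.01, 9.7 and 5.61 to 26.2, 8.45 and 17.9 CPM (1.39 ± 0.42 SE, adjusted p = 0.0369), with overlap between single libraries and a call that was lost in 4 of 6 fits that left out 1 library, and its pSer2 Pol2 rose at CONS_140 (2.66 ± 0.35 SE, adjusted p = 0.00553). Of the circadian clock list, 2 of 19 genes had a promoter site, Ciart and Per3, and both sites were raised at PEAK_140 (5.19 and 3.59). In RNA neither was called, Ciart being at 0 to 0.609 CPM and Per3 at 7.43, 15.9 and 4.56 CPM in PULS VEH and 6.93, 7.91 and 7.46 CPM in PULS CORT, while 2 of 15 clock genes without a promoter site rose in PULS.

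Outside these lists, the genes with the smallest adjusted p included several whose promoter GR was not raised. GR at distal sites of these genes is not described. Edem1, which directs misfolded proteins from the endoplasmic reticulum to degradation, had GR values of 0.70 and -0.09 in VEH, -1.0 and -0.84 at PEAK_140, 1.18 and -1.0 at NADIR_180, 3.92 and -1.25 at CONS_140 and -1.45 and -1.40 at CONS_180 at its site (chr4:140886679-140887206, 397 b, exon), with 1 high library, CONS_140 library 1. Its pSer2 Pol2 values were 8.16 and 7.61 in VEH, 10.90 and 10.81 at PEAK_140, 8.51 and 8.52 at NADIR_180, 11.63 and 11.37 at CONS_140 and 11.08 and 10.91 at CONS_180, and RNA was 158, 131 and 217 CPM in PULS VEH, 1063, 828 and 854 CPM in PULS CORT, 149, 177 and 160.4 CPM in CONS VEH and 1719, 1325 and 1679 CPM in CONS CORT. pSer2 Pol2 rose at PEAK_140 (2.97 ± 0.28 SE, adjusted p = 0.00121), CONS_140 and CONS_180 and RNA rose in both patterns (2.44 ± 0.18 SE, adjusted p = 1.3e-06 in PULS and 3.28 ± 0.18 SE, adjusted p = 2.39e-08 in CONS), without overlap with VEH. Mfsd2a, a lysophosphatidylcholine transporter, likewise had low GR (-0.73 and -0.57 at PEAK_140) beside pSer2 Pol2 changes of 3.09 at PEAK_140 and 3.61 at CONS_140 and RNA changes of 2.18 and 3.85. Usp2, a deubiquitinase, rose in RNA from 2.72, 0.566 and 3.73 to 32.5, 31.7 and 22.9 CPM in PULS and in pSer2 Pol2 by 3.51 ± 0.51 (SE, adjusted p = 0.00771) at PEAK_140, while the change of GR at its site did not pass (2.78 and -0.77 in VEH, 4.76 and 3.76 at PEAK_140, 3.25 ± 1.36 SE, adjusted p = 0.0512). The pSer2 Pol2 call of Usp2 at PEAK_140 was lost in 3 of 4 limma fits that left out 1 library.

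At other such genes GR was raised. Upp2, uridine phosphorylase, had GR values of -0.64 and 0.46 in VEH, 5.60 and 5.01 at PEAK_140, 0.76 and -0.41 at NADIR_180, 4.88 and 4.94 at CONS_140 and 4.30 and 4.61 at CONS_180 at its promoter site. Its RNA was 27.5, 55.5 and 23.4 CPM in PULS VEH, 110.3, 79.4 and 84 CPM in PULS CORT, 76.3, 32.6 and 102 CPM in CONS VEH and 883, 534 and 762 CPM in CONS CORT. The CONS CORT libraries were above all others, with changes of 1.36 ± 0.35 (SE, adjusted p = 0.0318) in PULS and 3.36 ± 0.35 (SE, adjusted p = 1.08e-05) in CONS and a difference between them that did not pass (2.00 ± 0.48 SE, adjusted p = 0.0951). The PULS call was lost in 5 of 6 fits that left out 1 library. Il6r, the interleukin 6 receptor, rose in all 3 assays (5.77 for GR and 2.02 for pSer2 Pol2 at PEAK_140, 0.90 and 1.72 for RNA), and so did Slc25a15, the mitochondrial ornithine transporter (2.86, 2.44, 1.43 and 2.40), and Coq10b, a coenzyme Q binding protein (5.03, 2.12, 1.11 and 2.41). In fits that left out 1 library, the pSer2 Pol2 call at PEAK_140 was lost in 3 of 4 for Il6r. It was lost in 2 of 4 for Slc25a15 and in 4 of 4 for Coq10b. The GR call of Slc25a15 at PEAK_140 was lost in 3 of 4 such fits. Adk, with the largest GR change named here, rose in RNA from 1032, 1095 and 1005 to 2188, 2013 and 1881 CPM in PULS and from 1025, 716 and 811 to 3039, 2772 and 2685 CPM in CONS. Agt rose in PULS from 247, 214 and 228 to 407, 391 and 345 CPM (0.73 ± 0.11 SE, adjusted p = 0.000868), and in CONS its change of 0.41 was under 1.5-fold. Fga, next to a strong site, did not pass in RNA (-0.23 ± 0.22 SE, adjusted p = 0.617 in PULS and -0.44 ± 0.22 SE, adjusted p = 0.226 in CONS).

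The 7 promoter-bound genes whose pSer2 Pol2 fell at PEAK_140 were Nfe2l2, Cyp4f1, Pdk4, Aox1, Ces1f, Rnf125 and Zfp36l1. Pdk4, pyruvate dehydrogenase kinase, which spares glucose and is itself a listed GR target, had promoter sites at -989 b (chr4:30557606-30558001) and -170 b (chr4:30556669-30557299). GR at the further site was -0.78 and 2.19 in VEH, 3.94 and 4.12 at PEAK_140 and 0.69 and -0.57 at NADIR_180. Under constant CORT it was 2.90 and 3.27 at CONS_140 and 2.79 and 0.26 at CONS_180. GR at this site rose at PEAK_140 (3.33 ± 1.14 SE, adjusted p = 0.0233, limma). That GR call was lost in 3 of 4 limma fits that left out 1 library. GR values of the nearer site, which is the one plotted for Pdk4, are not listed here. The pSer2 Pol2 values of Pdk4 were 11.11 and 11.04 in VEH, 8.58 and 9.52 at PEAK_140, 9.87 and 9.89 at NADIR_180, 9.49 and 9.42 at CONS_140 and 9.30 and 9.32 at CONS_180, and RNA was 81.5, 109 and 100.2 CPM in PULS VEH, 36.2, 70.2 and 82.5 CPM in PULS CORT, 82.9, 91.5 and 120.5 CPM in CONS VEH and 42, 56.4 and 27.6 CPM in CONS CORT. All CORT libraries were below VEH in pSer2 Pol2, where the fall was called at PEAK_140 (-2.03 ± 0.32 SE, adjusted p = 0.0119) and CONS_140 (-1.62 ± 0.32 SE, adjusted p = 0.0477), and RNA fell in CONS (-1.22 ± 0.26 SE, adjusted p = 0.00542). The pSer2 Pol2 calls at PEAK_140 and CONS_140 were each lost in 3 of 4 fits that left out 1 library. Sgk1, a serum and glucocorticoid regulated kinase, had a raised GR site (2.51 at PEAK_140) and fell in CONS RNA from 94.7, 69.2 and 61.4 to 32.5, 21.4 and 46.4 CPM (-1.18 ± 0.37 SE, adjusted p = 0.0486), a call that was lost in 5 of 6 fits that left out 1 library. The GR call of Sgk1 at PEAK_140 was lost in 3 of 4 such limma fits. Srgap2, a GTPase-activating protein of the SLIT-ROBO pathway, fell in both patterns (-0.77 and -0.66) with no GR change called at its site 2 b from the TSS.

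Orm1, whose site was among the most raised, rose in pSer2 Pol2 at PEAK_140 (3.17 ± 0.45 SE, adjusted p = 0.0069), a call that was lost in each of the 4 limma fits that left out 1 library. Its RNA was 662, 301 and 597 CPM in PULS VEH, 1072, 709 and 854 CPM in PULS CORT, 799.9, 5227 and 1239.9 CPM in CONS VEH and 534, 673 and 623 CPM in CONS CORT. A single CONS VEH library was far above the others, and the fall in CONS (-1.99 ± 0.49 SE, adjusted p = 0.0125) was -0.74 without that library (adjusted p = 0.0924, edgeR). Kng1 had the same pattern, with 1473, 12202 and 2363 CPM in CONS VEH and a change that did not pass (-1.41 ± 0.51 SE, adjusted p = 0.0833). Library 2 of CONS VEH was the high one for both.

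Differences between PULS and CONS in transcription were called at few promoter-bound genes in the fit to all libraries, and the counts depended on single libraries. In pSer2 Pol2, the change from 140 to 180 min differed between the patterns at 5 of 414 genes (all regions 0.0574%), by limma, with 106 at an unadjusted p below 0.05. They were LOC299282 (3.91 ± 0.35 SE, adjusted p = 0.00187), Serpina3c (3.69 ± 0.35 SE, adjusted p = 0.00187), Got1 (3.10 ± 0.45 SE, adjusted p = 0.0419) and Insig1 (2.75 ± 0.38 SE, adjusted p = 0.0385), which fell more in PULS, and Ces1f (-3.31 ± 0.44 SE, adjusted p = 0.032), which rose in PULS. Insig1, which holds back sterol synthesis, had pSer2 Pol2 values of 10.22 and 10.01 in VEH, 10.62 and 10.84 at PEAK_140, 7.61 and 7.49 at NADIR_180, 10.95 and 10.64 at CONS_140 and 10.51 and 10.22 at CONS_180. Only NADIR_180 was low, and its fall against VEH was called (-2.57 ± 0.27 SE, adjusted p = 0.0221). That call was lost in 3 of 4 limma fits that left out 1 library. Ces1f, a carboxylesterase, had pSer2 Pol2 values of 7.40 and 7.20 in VEH, 3.23 and 3.16 at PEAK_140, 6.13 and 6.11 at NADIR_180, 6.60 and 6.15 at CONS_140 and 6.12 and 5.86 at CONS_180. Here PEAK_140 was low in both libraries and NADIR_180 was closer to VEH. Serpina3c belongs to a serpin family with near-identical copies in rodents, among which reads may be shared. Without either CONS_180 library or CONS_140 library 1, 0 genes were called, and without CONS_140 library 2, 34 and 64 in the 2 directions. The replicate block gave 18 and 19, and setting the library medians to 0 gave 29 and 6.

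In RNA, the response differed between CONS and PULS at 1 of 388 genes by edgeR (all genes 0.0284%), with 105 at an unadjusted p below 0.05. It was Cyp2c22, a cytochrome P450 (chr1:259287492-259288117, -120 b), whose RNA was 844, 639.9 and 1020.4 CPM in PULS VEH, 2310.4, 1840.3 and 1578 CPM in PULS CORT, 1306, 1315 and 1441 CPM in CONS VEH and 1008, 1199.6 and 1141 CPM in CONS CORT. PULS CORT was above PULS VEH without overlap (1.19), CONS was not called (-0.28), and the CONS minus PULS difference was -1.47 ± 0.24 (SE, adjusted p = 0.0416). DESeq2 called 16 genes upwards and 13 downwards in the same comparison. The call of Cyp2c22 was made in 5 of 12 edgeR fits that left out 1 library, with an adjusted p of 0.0123 to 0.162. Socs2, a suppressor of growth hormone signalling, had pSer2 Pol2 values of 8.06 and 7.43 in VEH, 8.00 and 7.15 at PEAK_140, 7.28 and 6.05 at NADIR_180, 4.88 and 2.63 at CONS_140 and 8.31 and 7.27 at CONS_180. Only CONS_140 was low (-3.99 ± 0.69 SE, adjusted p = 0.0217), while GR at the Socs2 site and Socs2 RNA were not called in any comparison against VEH. The CONS_140 call was lost in 3 of 4 limma fits that left out 1 library.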

How the data were processed

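GR and pSer2 Pol2 ChIP-Seq and RNA-Seq libraries of rat liver were taken as deposited. For both ChIP assays the authors deposited log2 values made with HOMER (4.9.1) after alignment to rn6, with input tags subtracted and each value drawn towards the mean of its region. The file headers give a normalisation to total tags, whereas the study's methods give tags within binding regions for GR. ChIP reads had been trimmed with Trimmomatic (0.36). For RNA the authors deposited counts of reads over exons from featureCounts (1.6.2), with that version from the submitters' processing notes, after trimming with bbduk. Columns with the authors' own fold changes and p-values were not used.

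ChIP values were tested in limma (3.58.1) with a variance trend over all regions, and RNA counts in edgeR (4.0.16, quasi-likelihood test, TMM factors) over all genes with more than 10 reads in total, in R (4.3.3). Calls needed a change above 1.5-fold at an adjusted p (Benjamini-Hochberg) under 0.05. RNA levels are log2 CPM with a prior count of 2 or, where CPM is written, CPM. Single values per library were compared by exact permutation in Python (3.11.15) with scipy (1.17.1). The fits were tested on simulated data. Alternatives were DESeq2 (1.42.0), other scalings and filters, a replicate block, fits on the compared groups only and leaving out each library.

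Samples were grouped by their labels. In pSer2 Pol2, libraries with the same replicate number deviated together, with correlations of 0.15 to 0.55 in all 6 pairs among the 4 CORT groups, and were treated as paired in the block fit. The VEH libraries carry no such number and were numbered by time there. Depth per library is given in the report, and with 2 or 3 libraries a group the precision rests mainly on the spread shared over groups.

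Genes were named where their site was among the most raised at PEAK_140 or NADIR_180, most different between PEAK_140 and NADIR_180, most lowered, highest in VEH, raised under CONS only, nearest to the start, or at the distance limit, where the gene was among the 20 with the smallest adjusted p, or where it belonged to a gene list. Not all sites so selected are described, and some items are not reported here. Ces1f, Cyp2c22, LOC299282 and Serpina3c, and the list of genes that fell in pSer2 Pol2, were named after their values were seen. Promoter sites and gene lists were chosen with earlier results of these data known. Motifs were counted in RefSeq promoters (GRCr8), and no coordinate was converted between builds.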

Additional observations from a re-analysis of the deposited data

Results flagged for a closer look

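The change of GR from 140 to 180 min differed between PULS and CONS at 122 promoter sites in an interaction term (limma). The fall was greater in PULS at 115 of them and greater in CONS at 7. With the median of each library set to 0 these counts were 0 and 15.

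In pSer2 Pol2 the PULS minus CONS difference of the same change was 3.91 at LOC299282, 3.69 at Serpina3c, 3.10 at Got1 and 2.75 at Insig1, and -3.31 at Ces1f, on the log2 scale. In RNA, the CONS response minus the PULS response of Cyp2c22 was -1.47 on the log2 scale. Each of these passed the test of the difference itself, in limma or edgeR. When 1 library was left out, LOC299282 and Serpina3c passed in 7 of 10 fits each, Got1, Insig1 and Ces1f in 1 of 10 each and Cyp2c22 in 5 of 12.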

How the results depend on the processing

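After the median of each GR library was set to 0, 5, 0, 10 and 6 sites were raised over VEH at PEAK_140, NADIR_180, CONS_140 and CONS_180 in turn. At PEAK_140 111 were lowered, and 0 were higher at PEAK_140 or CONS_180 than at NADIR_180. pSer2 Pol2 then had 57, 1, 64 and 33 genes called at PEAK_140, NADIR_180, CONS_140 and CONS_180. Changes of GR that turned negative on that scale are log2 values at PEAK_140, CONS_140 and CONS_180 for AABR07016592.1 (-2.35, -1.71 and -2.27), Cps1 (-1.92, -0.63 and -0.71), Sgk1 (-2.10, -1.47 and -1.43), Slc2a2 (-0.46, -0.43 and -1.33) and Tsc22d3 (-0.52, -0.65 and -0.77). At PEAK_140 and CONS_180 they were those of Acacb (-1.05 and -0.11), Cyp7a1 (-2.15 and -2.17) and Got1 (-0.40 and -0.10). At PEAK_140 alone they were those of Mat1a (-0.35), Nr0b2 (-0.13), the further Pdk4 site (-1.29), Per3 (-1.02), Ppp1r3c (-1.0) and Slc25a15 (-1.76), and at CONS_180 alone that of Mafk (-0.76). Of 106 called GR changes at named sites, 13 kept their call, 65 lost it and 28 turned.

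With only the libraries of the compared groups, GR was raised at 0 sites at NADIR_180 and lowered at 15 at PEAK_140, and pSer2 Pol2 calls numbered 0, 0, 0 and 3 at PEAK_140, NADIR_180, CONS_140 and CONS_180, where fewer libraries set the spread. All 53 called pSer2 Pol2 changes at named genes lost their call there, as did 11 of 106 for GR. With only the upper part of all features by mean value, GR was raised at 166, 161 and 153 sites at PEAK_140, CONS_140 and CONS_180 and lowered at 5 at PEAK_140, and pSer2 Pol2 calls numbered 58, 5, 63 and 35, since fewer features were tested. The replicate block gave 51, 1, 79 and 32 pSer2 Pol2 calls. In GR (6 pairs, correlations -0.03 to 0.07) and RNA (18 pairs, -0.05 to 0.08) the samples share only a number, and the block gave 279, 26, 255 and 248 raised GR sites and 56 and 106 RNA calls in PULS and CONS. Without sites with a peak at CONS_140 alone, a setting chosen after seeing the data, 0 pSer2 Pol2 genes were called at NADIR_180.

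With means in place of medians, the GR promoter minus distal difference between 6 and 4 libraries was -0.75 (exact permutation p = 0.0381). Against genes with sites at 1 to 10 kb, the CORT minus VEH difference was 0.02 for RNA and -0.19 for pSer2 Pol2, and without VEH library 1 it was -0.03 for pSer2 Pol2. When each library was left out in turn, raised GR sites ranged from 193 to 234 at PEAK_140, 15 to 55 at NADIR_180, 177 to 331 at CONS_140 and 149 to 187 at CONS_180, those higher than at NADIR_180 from 116 to 214 at PEAK_140 (lowest without PEAK_140 library 1) and 61 to 161 at CONS_180 (lowest without CONS_180 library 1), and lowered sites at PEAK_140 from 3 (without VEH library 1) to 7. pSer2 Pol2 calls ranged from 4 (without VEH library 2) to 16 at PEAK_140, 0 to 1 at NADIR_180, 3 (without VEH library 2) to 111 (without CONS_140 library 2) at CONS_140 and 0 (without CONS_180 library 1) to 7 at CONS_180, and RNA calls from 40 to 53 in PULS and 85 to 104 in CONS. The promoter minus distal differences ranged from -0.57 to -0.32 over 6 and 4 GR libraries, -0.43 to -0.20 for GR between CORT and VEH, -0.03 to 0.18 for pSer2 Pol2 and 0.07 to 0.11 for RNA. Calls at named genes were lost in 74 of 424 such GR fits, 129 of 212 for pSer2 Pol2 and 42 of 348 for RNA. In RNA, DESeq2 kept 56 of 58 such calls and edgeR without TMM factors 55. The cause of these shifts was not tested except where the setting itself changes the number of features or libraries.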

Other observations

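Promoter sites made up 24 of the 116 regions with a peak in VEH (20.7%) and 16 of the 72 with a peak at NADIR_180 (22.2%). They made up 8.63% of regions with a peak at PEAK_140, 16.7% at CONS_140 and 10.3% at CONS_180. The share was thus higher where few regions had a peak, and it was not tested.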
